A study of Mus musculus with 15 samples.

Results

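miR-21a is a microRNA (miRNA) of the mouse, cut as a pair of arms from 1 RNA hairpin. Both arms, mmu-miR-21a-5p and mmu-miR-21a-3p, were taken by name from the deposited tables, where they are 2 of 248 mature miRNAs listed at both ages. The tables hold 15 small-RNA libraries of Kupffer cells, macrophages that reside in the liver. Wild-type C57BL/6J mice (wt) gave 4 libraries at 9 weeks and 4 at 14 weeks. Obese mice labelled by the strain name ob/ob gave 3 libraries at 9 weeks and 4 at 14 weeks. ob/ob mice lack functional leptin in the whole body, so effects of obesity and of absent leptin cannot be told apart in them, and the labels do not name their background strain. No label states a treatment, or that replicates are separate animals, so the p-values measure only the spread between these libraries, which may be technical.

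A miRNA hairpin is trimmed to a duplex, of which 1 strand is usually kept in the Argonaute protein and the other is degraded. The kept strand finds its target mRNAs mainly through its seed, the short stretch after its first base. miR-21 is transcribed with STAT3, AP-1 and NF-kB among its known activators. In macrophages it is known as a miRNA that rises after inflammatory stimulation, and in liver it has been studied in steatosis and fibrosis.

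The mature sequences are shown because the arms carry different seeds, and the arms are therefore separate regulators with separate levels. They were read from RefSeq (build GRCm38.p6), 5′ to 3′, with the seed (bases 2 to 8) in capitals.
mmu-miR-21a-5p: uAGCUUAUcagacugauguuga
mmu-miR-21a-3p: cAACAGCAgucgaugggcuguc
mmu-miR-21b: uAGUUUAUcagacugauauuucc
mmu-miR-21c: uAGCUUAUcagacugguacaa

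The 5p arm lies at chr11:86584120-86584141 and the 3p arm at chr11:86584082-86584103, both on the minus strand. Each arm has 22 bases, with a GC content of 36.4% in the 5p arm and 59.1% in the 3p arm. The hairpin gene Mir21a spans chr11:86584067-86584158 (92 bases), with 16 bases between the arms. In the GENCODE vM21 annotation of GRCm38 it lies within the 3′ UTR part of exon 12, the last exon, of Vmp1 (transcript Vmp1-201, same strand), a gene for a membrane protein of autophagy. Of the 248 listed miRNAs 218 were matched to a RefSeq mature sequence, and among these no other one shared the seed of either arm. miR-21b and miR-21c, from loci of their own, are shown because short reads of them resemble the 5p arm. miR-21c has the same seed and the same first 15 bases. Over the first 12 bases miR-21b differs by C4U, counted from 1 at the 5′ end of miR-21a-5p. Neither was analysed here, and how the authors assigned reads shared by close relatives was not stated in any source used here.

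The 5p arm was among the most abundant of the listed miRNAs in these libraries. Levels are in RPM, taken as reads per 1000000 reads, a unit inferred from the values. The listed miRNAs summed to 147387 to 358621 RPM per library, and the level of any unlisted miRNA, such as the myeloid miR-223-3p, is not known here. miR-21a-5p held rank 2 to 6 among the listed miRNAs in every one of the 15 libraries. By the mean of the 4 group means its place was 4 of 248, at 27293 RPM. Above it were miR-22-3p with 45420 RPM, miR-126a-5p, a miRNA of endothelial cells, with 41649 RPM, and miR-10a-5p with 29151 RPM. Below it came let-7f-5p with 24291 RPM, miR-26a-5p with 22597 RPM and miR-16-5p with 12433 RPM. The order among the neighbours was not fixed. miR-10a-5p exceeded miR-21a-5p in 9 libraries and let-7f-5p did so in 7, while miR-22-3p did so in all 15 and miR-16-5p in 0.

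**Figure D1:**
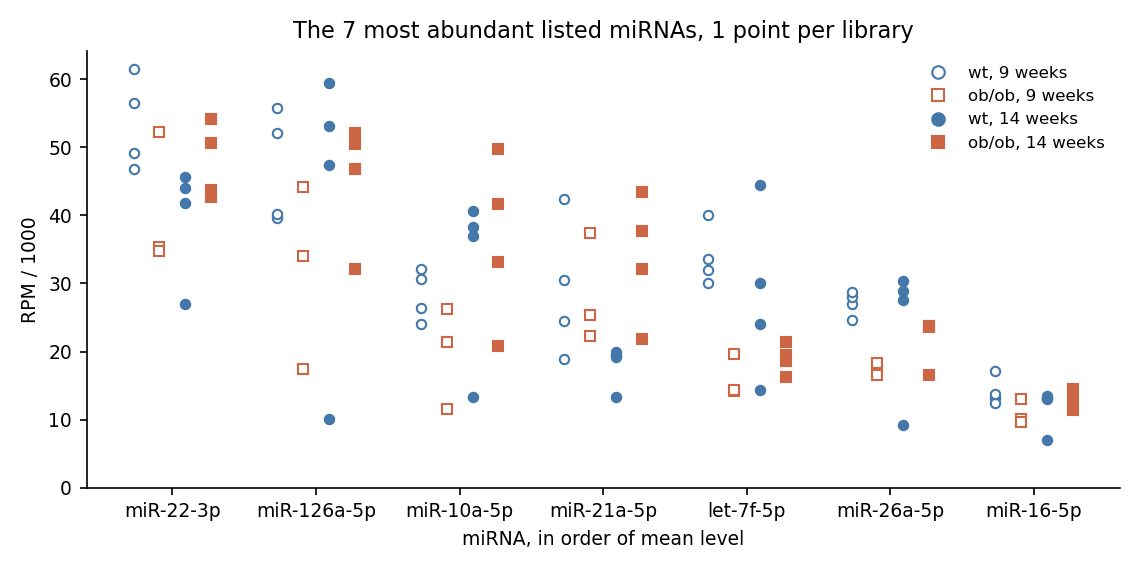
RPM divided by 1000 of the 7 listed miRNAs with the highest mean level, with 1 point per library, open symbols for 9 weeks, filled for 14 weeks, blue circles for wt and orange squares for ob/ob. miR-21a-5p overlaps its neighbours miR-10a-5p and let-7f-5p, and its 4 wt libraries of 14 weeks lie below its 4 ob/ob libraries of that age.

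At 9 weeks the level of miR-21a-5p spread widely within each genotype. In wt it was 42384, 18864, 24510 and 30567 RPM in replicates 1 to 4, a mean of 29081 ± 10074 (SD, n = 4). In ob/ob it was 25391, 37465 and 22213 RPM, a mean of 28357 ± 8047 (SD, n = 3). The highest and the lowest library of that age were both wt, and the groups overlapped. The log2 fold change of ob/ob against wt, on the log2(RPM + 0.5) scale, was -0.01 (SE 0.30, 95% interval -0.70 to 0.68, adjusted p = 0.977, limma with Benjamini-Hochberg adjustment over 179 miRNAs). In the same test 67 of the 179 miRNAs (37.4%) passed an adjusted p of 0.05, and the median log2 fold change of all tested miRNAs was -0.51. The interval for miR-21a-5p holds both 0 and that median.

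At 14 weeks every ob/ob library lay above every wt library. The wt libraries held 13315, 19487, 19190 and 20004 RPM in replicates 1 to 4, a mean of 17999 ± 3141 (SD, n = 4). The ob/ob libraries held 21824, 32098, 43352 and 37666 RPM, a mean of 33735 ± 9174 (SD, n = 4). Such a separation was seen in 38 of the 171 tested miRNAs (22.2%). The log2 fold change was 0.88 (SE 0.27, 95% interval 0.28 to 1.49), with a raw p of 0.00900 and an adjusted p of 0.0535 in limma. miR-21a-5p thus missed the threshold, which 26 of 171 miRNAs (15.2%) passed, 20 of them higher in ob/ob (11.7% of those tested). By size of the fold change it was 30th and by p-value 28th of the 171. The median log2 fold change of all tested miRNAs was 0.20.

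**Figure D2:**
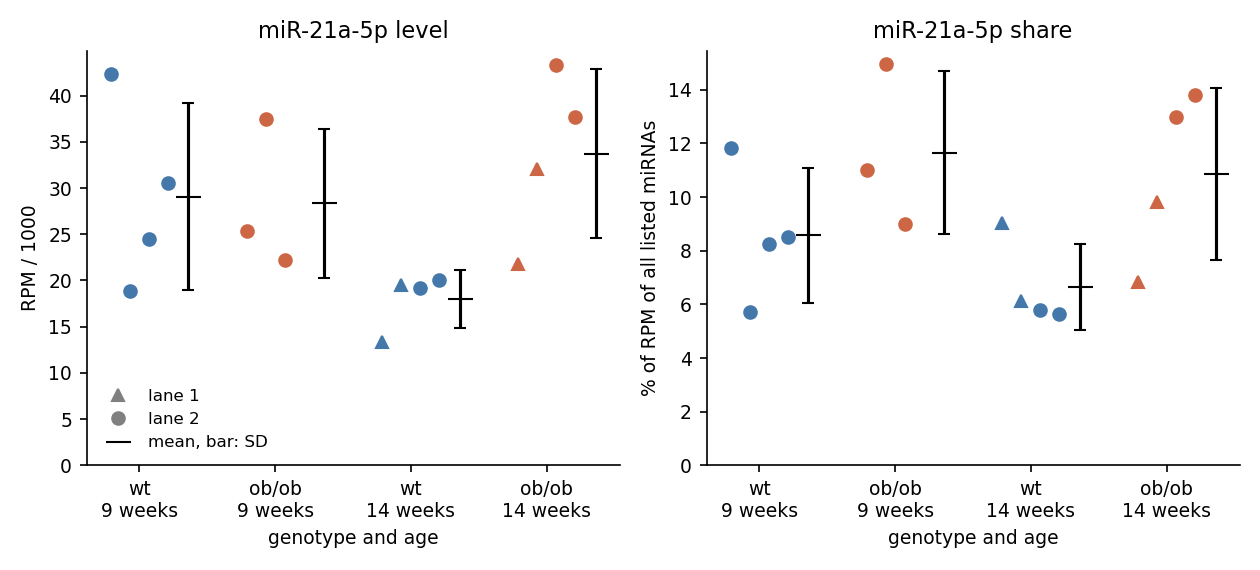
Level of miR-21a-5p in RPM divided by 1000 (left) and its share in percent of the RPM of all listed miRNAs (right), with 1 point per library, triangles for lane 1 and circles for lane 2, and the group mean with its SD as a bar. The RPM of the 14-week groups do not overlap, while in share the wt library of replicate 1 (9.03%) lies among the ob/ob libraries.

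As a share of all listed miRNAs, miR-21a-5p was higher in the ob/ob mean at both ages, and neither difference passed its test. A share sets the arm against the summed RPM of the listed miRNAs, which itself differed between libraries. That sum was 297668 to 358621 RPM in wt and 230785 to 250422 RPM in ob/ob at 9 weeks, without overlap. At 9 weeks the share was 11.8, 5.71, 8.23 and 8.52% in wt replicates 1 to 4 (mean 8.57% ± 2.51, SD, n = 4) and 11.002, 14.961 and 8.995% in ob/ob (mean 11.7% ± 3.04, SD, n = 3). Only 1 of the 3 ob/ob libraries exceeded all wt libraries. The difference of 3.08 percentage points had p = 0.286 in a two-sided exact permutation test, which can go no lower than 0.0571 with these group sizes (adjusted p = 0.286 over the 4 tests of 2 arms at 2 ages).

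At 14 weeks the share of miR-21a-5p was 9.03, 6.14, 5.78 and 5.65% in wt (mean 6.65% ± 1.60, SD, n = 4) and 6.823, 9.813, 12.999 and 13.798% in ob/ob (mean 10.9% ± 3.19, SD, n = 4). Here 3 of the 4 ob/ob libraries exceeded all wt libraries, and the ratio of the means was 1.63. The difference of 4.21 percentage points had p = 0.0571 in the two-sided exact permutation test (smallest possible 0.0286) and an adjusted p of 0.229. The wt library of replicate 1 had both the lowest level and the highest share of miR-21a-5p in its group. Its listed miRNAs summed to 147387 RPM, against 272978 to 353829 RPM in the other 7 libraries of that age.

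The size of the ob/ob difference depended on the scaling. After rescaling each library by the median ratio over miRNAs, which sets the median change near 0, the log2 fold change of miR-21a-5p was 0.50 at 9 weeks (adjusted p = 0.207) and 0.66 at 14 weeks (adjusted p = 0.0776, limma). On the share scale it was 0.46 at 9 weeks (adjusted p = 0.246) and 0.68 at 14 weeks (adjusted p = 0.0774). With a further correction for GC content, it was 0.28 at 9 weeks (adjusted p = 0.457) and 0.28 at 14 weeks (adjusted p = 0.383). All of these values were positive, and none passed the threshold.

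At 14 weeks the libraries of replicates 1 and 2 were sequenced in lane 1 and those of replicates 3 and 4 in lane 2, and the ob/ob difference was not alike in size in the lanes. In lane 2 alone the log2 fold change of miR-21a-5p was 1.04 in RPM (SE 0.15, adjusted p = 0.0152, limma, n = 2 per genotype) and 1.23 in share (adjusted p = 0.000925). In lane 1 alone it was 0.72 in RPM (SE 0.66, adjusted p = 0.713) and 0.14 in share (adjusted p = 0.903). The difference between the lanes was not tested. With lane as a covariate the value of 0.88 had an adjusted p of 0.0423. Leaving out the wt library of replicate 1 gave 0.74 (adjusted p = 0.0430), and leaving out the ob/ob library of replicate 1 gave 1.07 (adjusted p = 0.0187), so that 1 library on either side decided the call. Without the other 6 libraries in turn the adjusted p stayed above 0.05, up to 0.162. Calls over all tested miRNAs changed as well, from 26 with all libraries to 46 without wt replicate 1. In lane 2 alone, too, more miRNAs were called than with all libraries, so gaining a call was not particular to miR-21a-5p. All libraries of 9 weeks were in lane 2.

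**Figure D3:**
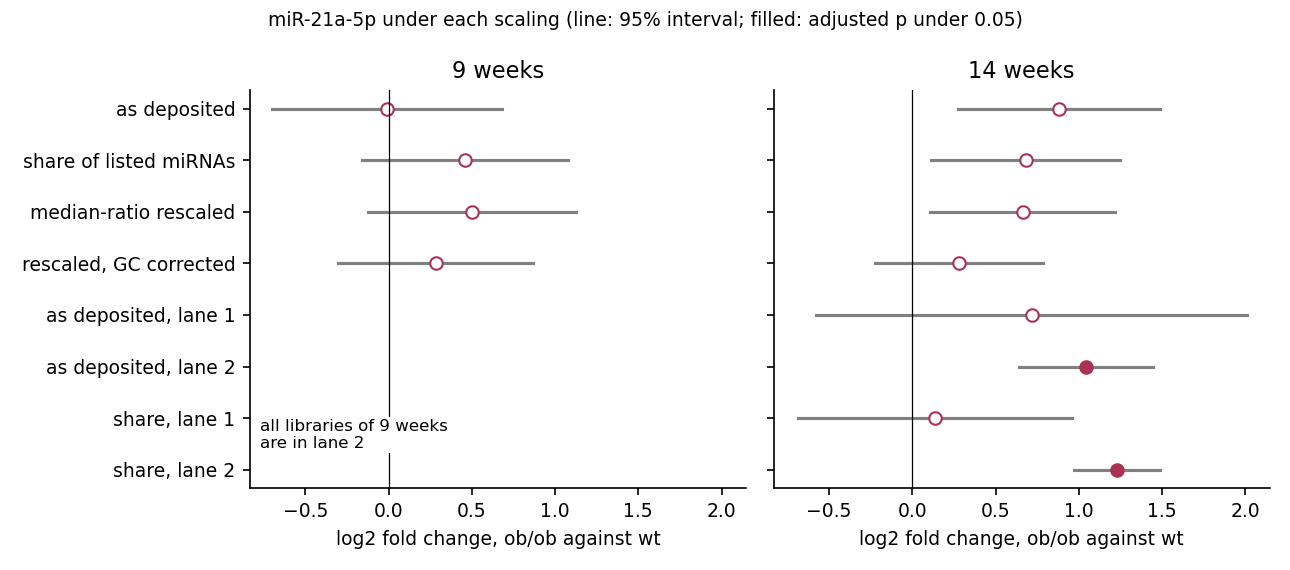
log2 fold change of miR-21a-5p in ob/ob against wt (x axis) at 9 weeks (left) and 14 weeks (right), by scaling and lane, with the 95% interval as a line and filled points for an adjusted p under 0.05 in limma. At 14 weeks the points run from 0.14 to 1.23 and only those of lane 2 alone are filled.

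Levels at both ages stand side by side without a test, since each age has its own table and the lanes differ. Mean miR-21a-5p was 29081 RPM at 9 weeks and 17999 RPM at 14 weeks in wt, and 28357 and 33735 RPM in ob/ob. The ob/ob effect at 14 weeks minus that at 9 weeks was 0.89 on the log2 scale (SE 0.41, 95% interval 0.01 to 1.77, adjusted p = 0.187, limma interaction over 15 libraries). None of 187 tested miRNAs passed this test (0 of 187, or 0%), while 48 had an unadjusted p under 0.05, and the median over all was 0.68. After median-ratio rescaling the difference for miR-21a-5p was 0.17, on the share scale 0.22, and with the GC correction -0.017.

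The 3p arm was listed at close to 0 in these tables. How the authors assigned reads to the arms of a hairpin is not known from the labels, and the arm's true abundance may differ from the listed one. miR-142a-3p, too, was listed at 0 to 18.6 RPM beside 1756 to 4320 RPM of its partner miR-142a-5p. The values of miR-21a-3p were whole numbers of reads within 0.1 reads, given what 1 read is worth in a library. The level of miR-21a-3p can therefore be read as reads. In wt at 9 weeks replicates 1 to 4 held 9, 7, 2 and 5 reads of miR-21a-3p, or 0.395, 0.521, 0.142 and 0.350 RPM. In ob/ob at 9 weeks they were 6, 0 and 8 reads, or 0.180, 0 and 0.236 RPM. At 14 weeks wt held 0, 7, 6 and 6 reads (0, 0.179, 0.253 and 0.249 RPM), and ob/ob held 10, 0, 32 and 24 reads (0.227, 0, 0.542 and 0.466 RPM). The groups overlapped at both ages, and the highest levels were in an ob/ob library of 14 weeks and a wt library of 9 weeks. Over the 15 libraries miR-21a-3p had 122 reads among 506 M (1000000) reads, 0.241 RPM (95% exact Poisson interval 0.200 to 0.288, which covers counting error only). In order of mean level it stood 214th of 248, between miR-3105-3p and miR-181a-1-3p, and 0 libraries had it above the 5p arm.

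**Figure D4:**
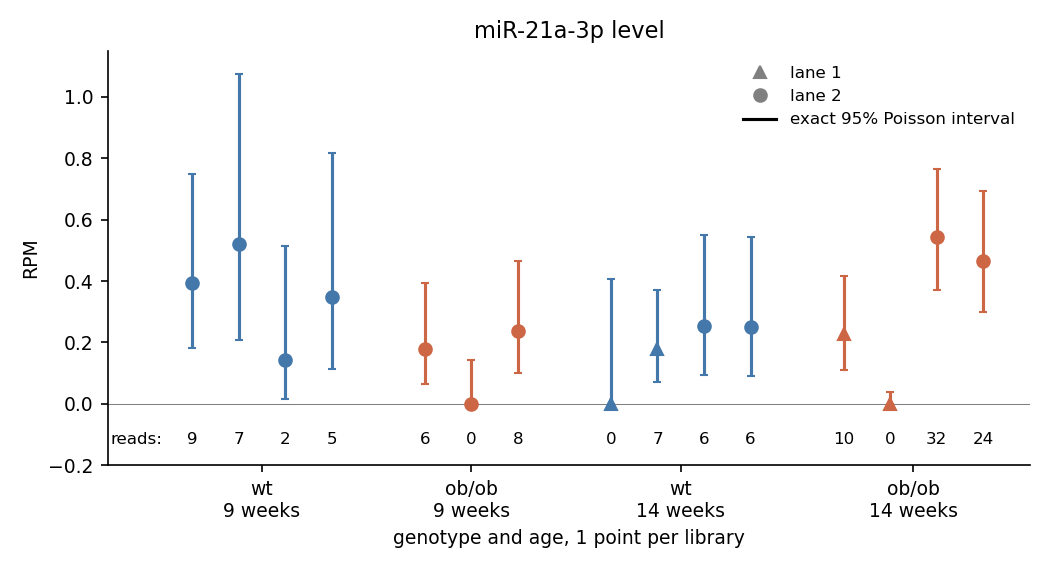
RPM of miR-21a-3p, with 1 point per library, triangles for lane 1, circles for lane 2, the exact 95% Poisson interval as a bar and the reads it stands for below. All 15 points lie at or below 0.542 RPM, and 3 libraries are at 0.

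The 3 libraries at 0 differ in what a 0 can mean. Counting 3 reads as the limit, the ob/ob library of replicate 2 at 9 weeks (25.9 M reads) allows up to 0.116 RPM, and the wt library of replicate 1 at 14 weeks (9.08 M reads) up to 0.330 RPM, a level that most other libraries do not exceed. The ob/ob library of replicate 2 at 14 weeks was the deepest, at 98.0 M reads, and allows up to 0.0306 RPM. At the lowest level of the 12 libraries above 0, which is 0.142 RPM, it would have held 13.9 reads. The same library listed miR-126a-3p at 0, which was above 0 in each of the other libraries and reached 3780 RPM there. An exact 0 in these tables may therefore be a failed assignment, which was not tested.

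Neither age gave a difference of the 3p arm between genotypes that passed a test. Its mean level was 0.352 ± 0.158 RPM in wt (SD, n = 4) and 0.139 ± 0.123 RPM in ob/ob (SD, n = 3) at 9 weeks, and 0.170 ± 0.119 and 0.309 ± 0.246 RPM (SD, n = 4 each) at 14 weeks. The arm never reached the 1 RPM that the fit over all miRNAs required, so it was not in that fit. The share in the listed miRNAs was compared by the two-sided exact permutation test, with p = 0.286 at 9 weeks and p = 0.286 at 14 weeks (adjusted p = 0.286 for both). The mean share was lower in ob/ob at 9 weeks, by a ratio of 0.560, and higher at 14 weeks, by a ratio of 1.99. The libraries at 0 entered these means and tests as 0, although their true level may be higher.

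For each read of the 3p arm there were 122890 reads of the 5p arm in the pooled libraries (95% interval 102923 to 147982). In the 12 libraries with the 3p arm above 0 the ratio of 5p to 3p ran from 36173 to 172443. The highest of these rests on 2 reads, with a counting interval of 47736 to 1423890. Set against the limit of 3 reads, the ratio was at least 323287 in the ob/ob library of replicate 2 at 9 weeks. It was at least 40301 in the wt library of replicate 1 at 14 weeks, and at least 1049030 in the ob/ob library of replicate 2 at that age. The upper end of the two-sided 95% Poisson interval for 0 reads is 3.69 reads, which gives lower limits of 262915, 32775 and 853126 for the same libraries.

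Among hairpins with both arms listed, miR-21a was the most one-sided by mean listed level, a rank that rests on the low listed values of its 3p arm and on the authors' unstated assignment of reads to arms. There were 70 such hairpins, of which 47 had the higher mean in the 5p arm and 23 in the 3p arm. The higher arm exceeded the lower by a median of 86.4 times, and by over 1000 times in 13 hairpins. For miR-21a the ratio of the mean levels was 112531, so that the 3p arm made up 0.000889% of the hairpin's RPM. The next were let-7g with 12456, miR-199a with 11664 in favour of its 3p arm, and let-7b with 9826. With an arm listed at 0 set to 3 reads, the 5p to 3p ratio of miR-21a was the highest of all hairpins in 13 of the 15 libraries. It was second in the ob/ob libraries of replicates 2 and 3 at 14 weeks, behind miR-126a and miR-30a.

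**Figure D5:**
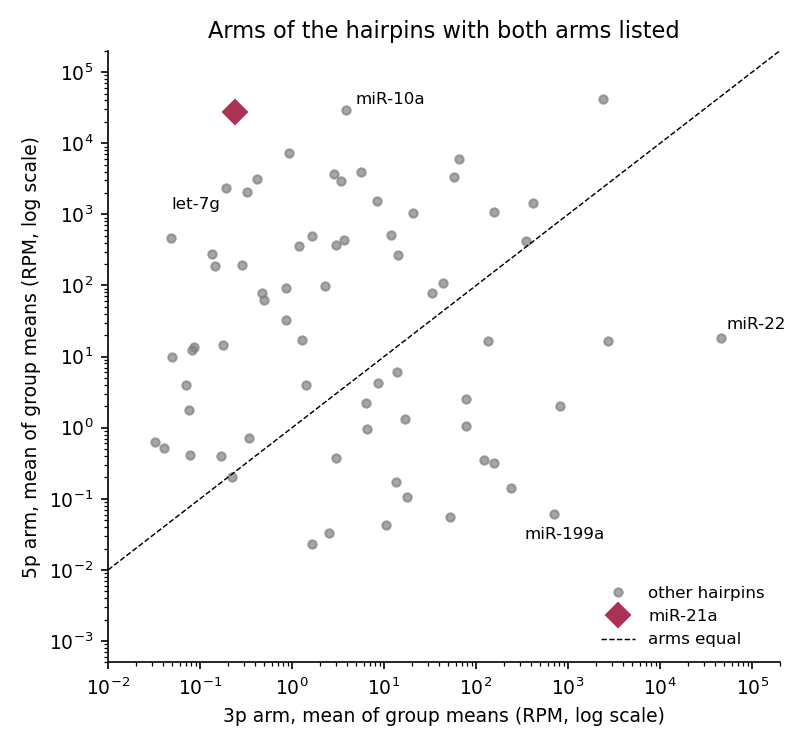
Mean of the 4 group means in RPM for the 3p arm (x axis) and the 5p arm (y axis) of the 70 hairpins with both arms listed, both axes on a log scale, with a dashed line where the arms are equal. miR-21a, at 0.243 RPM for the 3p arm and 27293 RPM for the 5p arm, lies farthest from that line.

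The proportion of the arms did not differ between genotypes by more than the spread of the libraries. Per 100000 reads of miR-21a-5p there were 1.36 ± 0.97 reads of miR-21a-3p in wt (SD, n = 4) and 0.59 ± 0.54 in ob/ob (SD, n = 3) at 9 weeks. The difference of -0.76 had p = 0.343 in a two-sided exact permutation test (adjusted p = 0.686 over 2 ages). At 14 weeks there were 0.87 ± 0.61 in wt and 0.88 ± 0.60 in ob/ob (SD, n = 4 each), a difference of 0.01 with p = 0.943 in the exact test (adjusted p = 0.943). Both tests rest on few reads and few libraries, and the libraries with the 3p arm at 0 entered as 0. No shift in the proportion of the arms was detected, and what size of shift could be missed was not tested. Across the 15 libraries the log2 shares of the arms had a Pearson r of 0.22 (permutation p = 0.438) and a Spearman rho of 0.26 (permutation p = 0.349), both with an adjusted p of 0.439 over 4 coefficients. In 3 of the 15 libraries the 3p arm was at 0. A log2 of 0 needs a set value, so these coefficients depend on that choice. Without the 2 libraries farthest from the median of the 5p arm r was 0.33. Within lane 2 (11 libraries) r was 0.26, or -0.05 for deviations from the group means, and lane 1 holds too few libraries (4) for a value.

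Several other measures differed between the genotypes in the same libraries, where miR-21a-5p itself, as deposited, passed the threshold at neither age. Markers of hepatocytes, the main cells of the liver, summed to 1099 to 1689 RPM in wt and 3169 to 6899 RPM in ob/ob at 14 weeks, over 4 of 5 markers listed. At 9 weeks the same sum was 1100 to 2222 RPM in wt and 3966 to 5524 RPM in ob/ob. At 14 weeks 38 of the 171 tested miRNAs (22.2%) had every ob/ob library above every wt library. For 9 weeks that share was not counted. Most of the hepatocyte sum was miR-192-5p, with a mean of 1317 RPM in wt and 5212 RPM in ob/ob at 14 weeks. miR-122-5p, the defining hepatocyte miRNA, was at 15.2 to 100.7 RPM in wt and 36.9 to 79.4 RPM in ob/ob at 14 weeks (log2 fold change 0.57, adjusted p = 0.551, limma), with overlap. At 9 weeks it was at 18.4 to 73.1 RPM in wt and 113 to 228 RPM in ob/ob (2.02, adjusted p = 0.0244). miR-144-5p, the 1 erythroid marker listed of 4, was at 0.331 to 0.974 RPM in wt and 11.6 to 32.4 RPM in ob/ob at 14 weeks. At 9 weeks miR-144-5p was at 0.52 to 1.49 RPM in wt and 14.7 to 21.7 RPM in ob/ob (log2 fold change 3.59, adjusted p = 0.000266, limma). The ob/ob libraries of 14 weeks were also deeper, at 63.2 ± 24.0 M reads against 24.0 ± 12.2 M (SD, n = 4 each, p = 0.0286 in a two-sided exact permutation test). So were those of 9 weeks, at 31.0 ± 4.5 M reads (SD, n = 3) against 16.1 ± 4.4 M (SD, n = 4). There p was 0.0571 in the same test, the smallest possible. Of the macrophage and myeloid markers 3 of 5 were listed. miR-511-3p, whose host gene is Mrc1, was lower in ob/ob at 9 weeks (-1.07, adjusted p = 0.00984), and miR-142a-5p, a miRNA of blood cells, was not called at either age. miR-142a-3p was listed at 0 in 3 of the 4 wt libraries and 0 of the 4 ob/ob libraries of 14 weeks. The endothelial markers miR-126a-5p and miR-126a-3p together held 10833 to 63153 RPM, and miR-126a-3p was lower in ob/ob at 9 weeks (-0.94, adjusted p = 0.0230). After median-ratio rescaling neither miR-511-3p nor miR-126a-3p was called. The part of these cell types and of depth in the level of miR-21a-5p was not tested. In such bulk libraries, more cells of a type and more RNA per cell cannot be told apart.

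Of 10 miRNAs known to rise with inflammatory signals in macrophages, as miR-21 is, 8 were listed and 7 tested. Of these 7, 3 were called at 9 weeks and 2 at 14 weeks, where 37.4% and 15.2% of all tested miRNAs were called. At 9 weeks 1 rose in ob/ob, miR-146b-5p, a relative of the Toll-like receptor brake miR-146a, with a log2 fold change of 2.86 (adjusted p = 0.00917, limma). At 9 weeks 2 fell, miR-132-3p by 0.95 (adjusted p = 0.0256) and miR-222-3p by 1.19 (adjusted p = 0.00566) on the log2 scale. After median-ratio rescaling neither was called lower, and miR-146a-5p was called higher beside miR-146b-5p. At 14 weeks miR-146b-5p rose by 1.79 (adjusted p = 0.0175) and miR-155-5p, a regulator of macrophage activation, by 1.31 (adjusted p = 0.0201), and 0 fell, while after rescaling miR-222-3p was called lower. The median of the list was -0.34 at 9 weeks and 0.21 at 14 weeks, against -0.51 and 0.20 over all tested miRNAs.

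Of 10 miRNAs linked to liver fibrosis, where miR-21 is studied too, all 10 were listed and 9 tested. Of these 9, 7 were called at 9 weeks and 2 at 14 weeks, beside the same 37.4% and 15.2% of all tested miRNAs. At 9 weeks 3 rose in ob/ob, miR-34a-5p, which p53 induces, by 1.26 (adjusted p = 0.00984), miR-192-5p by 1.57 (adjusted p = 0.00529) and miR-122-5p by 2.02 (adjusted p = 0.0244, limma). The last 2 are also hepatocyte markers. At 9 weeks 4 fell, miR-29a-3p and miR-29c-3p, which repress collagen mRNAs, and miR-199a-3p and miR-214-3p, which mesenchymal cells express, by 0.65 to 1.55 on the log2 scale. After median-ratio rescaling only miR-199a-3p of these 4 was still called. Of 5 tested stellate and mesenchymal markers, the last 2 of these among them, 3 were called lower at 9 weeks and 0 were called at 14 weeks. The marker miR-143-3p went the other way, by 0.43 at 9 weeks (adjusted p = 0.330) and 1.27 at 14 weeks (adjusted p = 0.0749, limma). It was called higher at 14 weeks after rescaling (adjusted p = 0.0488). At 14 weeks miR-34a-5p rose by 1.81 and miR-192-5p by 1.94 (adjusted p = 0.00256 for both), and 0 fell, and after rescaling miR-29b-3p was called higher too. The median of the list was -0.35 at 9 weeks and 0.51 at 14 weeks, against -0.51 and 0.20 over all tested miRNAs.

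The miRNAs whose log2 share followed that of miR-21a-5p most closely over the 15 libraries, of 117 with a mean of at least 10 RPM, were miR-148b-3p (r = 0.91), miR-141-3p (r = 0.85), miR-98-5p (r = 0.84), miR-30e-5p (r = 0.84) and miR-194-5p (r = 0.83). These r values are a description over libraries that share groups, lanes and a common denominator. miR-148b-3p, the closest, had a mean of 76.8 RPM in wt and 73.7 RPM in ob/ob at 9 weeks, and of 60.0 and 101 RPM at 14 weeks. Its log2 fold change was -0.04 at 9 weeks (adjusted p = 0.901) and 0.79 at 14 weeks (adjusted p = 0.109, limma). As it was picked for following miR-21a-5p in these same libraries, a likeness of these values to those of miR-21a-5p is no separate evidence. Of the 5, the biliary marker miR-141-3p (1.20, adjusted p = 0.0495) and the hepatocyte marker miR-194-5p (0.79, adjusted p = 0.0352) were called higher in ob/ob at 14 weeks. After median-ratio rescaling miR-194-5p was not called (adjusted p = 0.120), while miR-30e-5p was (adjusted p = 0.0192). The biliary markers miR-200a-3p (0.48, adjusted p = 0.592) and miR-200b-3p (0.51, adjusted p = 0.448) were not called at 14 weeks. At 9 weeks they were at -0.27 and -0.29 and miR-141-3p at 0.41, none of them called. For miR-21a-3p the closest was miR-127-3p, with r = 0.67. That value rests on 0 to 32 reads per library and on the value set for the libraries at 0.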

How the data were processed

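Small RNA of 15 libraries was measured. The authors deposited 1 table of values per age, taken here as RPM (reads per 1000000 reads), an inference from the values. Library preparation used Illumina's TruSeq Small RNA kit, per the labels' protocols. bcl2fastq, cutadapt, GRCm38.p5 and mm10 are named per the submitters' processing notes. The aligner, the miRNA annotation, the reads in the denominator and the handling of reads with several matches were not stated in any source used here. TruSeq adapters ligate some miRNAs better than others, so levels of different miRNAs are less comparable than 1 miRNA across libraries. All low values were whole multiples (100.0%, within 0.1 reads) of 1 step per library, the worth of 1 read, which implies a depth of 9.08 to 98.0 M reads. Counts were not recovered for high values, so no count model was used.

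log2(RPM + 0.5) was tested per age with limma 3.58.1 in R 4.3.3 (trend, robust, Benjamini-Hochberg, threshold 0.05) for miRNAs with at least 1 RPM in a number of libraries equal to the size of the smaller group, and as a genotype by age interaction. The limma fit was tested on data simulated from rescaled miRNAs without a 0. The permutation tests and the counts of the 3p arm were not tested in this way. Shares were compared with exact permutation tests (SciPy 1.17.1). The planned limma test of arm ratios over all hairpins could not include miR-21a, whose 3p arm fails the filter, so reads of the 3p arm per 100000 reads of the 5p arm were compared instead, a choice made after seeing the data. Libraries of 1 group correlated at 0.952 to 0.988, and 0 pairs were identical. The alternatives were other pseudocounts, filters and scalings, lane, a replicate block and leaving out each library. Named miRNAs were the members, their neighbours in level and arm ratio, the 5 with the most similar share, and members of the lists. The planned limit of 4 per list by p-value was exceeded for the inflammation and fibrosis lists, where all called members are named. The members and lists were chosen with earlier results of these data known.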

Additional observations from a re-analysis of the deposited data

Results flagged for a closer look

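A pair of values of miR-21a-5p was set apart, both from the wt library of replicate 1 at 14 weeks. Its level of 13315 RPM was far below the other 3 of its group, and its share of 9.03% of the listed miRNAs was far above them. Each was farther from the nearest library than Dixon's criterion allows for 4 values, a criterion that chance meets in about 1 in 20 groups. That library was the shallowest, at 9.08 M reads, and its listed miRNAs had the lowest sum, at 147387 RPM. The part of depth in this was not tested.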

How the results depend on the processing

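For miR-21a-5p at 14 weeks the log2 fold change was positive in all 25 fits, the reported one included, from 0.14 to 1.23 (adjusted p from 0.000925 to 0.903), and 6 of them passed the threshold. They were 0.88 with lane as a covariate, 1.04 in lane 2 alone, 0.84 as a share without wt replicate 1, 1.23 as a share in lane 2, and 2 of the 8 values without 1 library each (0.74 to 1.07). The share alternatives without that library or by lane were chosen after seeing the data. At 9 weeks the sign changed with rescaling (0.50), share (0.46), rescaling with GC correction (0.28) and 1 library left out (-0.23 to 0.19). The interaction turned to -0.017 with the GC correction and was 0.69 to 1.11 without 1 library each. Reads of miR-21a-3p per 100000 reads of the 5p arm at 14 weeks differed by -0.28 to 0.30 without 1 library each. The cause was not tested for any of these.

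No pairing of the libraries by replicate number was seen, and groups of 3 or 4 libraries cannot exclude it. Same-numbered wt and ob/ob libraries had correlations of deviations of -0.305 to 0.258 at 9 weeks and -0.295 to 0.365 at 14 weeks. For different numbers they ran from -0.638 to 0.457 at 9 weeks and from -0.508 to 0.506 at 14 weeks. With the replicate block the log2 fold change of miR-21a-5p was 0.036 at 9 weeks (adjusted p = 0.974), 0.88 at 14 weeks (adjusted p = 0.0565) and 0.84 for the interaction (adjusted p = 0.354), and the block gave 34 calls at 9 weeks and 2 for the interaction.

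Counts of called miRNAs at 9 weeks, 67 as deposited, were 38 with rescaling, 35 as share, 39 with rescaling and GC correction, and 53 to 71 without 1 library each. At 14 weeks the 26 calls became 48 with rescaling, 48 as share, 1 in lane 1, 51 in lane 2, 48 rescaled and 56 as share without wt replicate 1, 0 and 62 as share in lanes 1 and 2, 47 as share with lane as a covariate, and 13 to 46 without 1 library each. The 46 were without wt replicate 1. The interaction had 4 calls with no filter, 2 in lane 2 and 0 to 3 without 1 library each. Arm ratios over all hairpins, 5 of 35 called at 9 weeks and 9 of 33 at 14 weeks, gave 15 and 16 with no filter, 0 in lane 1 at 14 weeks, and 0 to 8 and 0 to 14 without 1 library each. The 3p arm rests on few reads, at most 32 in 1 library.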
